A study of Glycine max with 20 samples.

Results

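LEC1, ABI3 and FUS3 are transcription factors of seed maturation, and the 6 genes listed as their soybean copies are 6 of 55912 genes in the count tables. The members were taken by gene number, a pair for each factor, and each was read through its primary transcript model over all libraries. The annotation that comes with the counts was used to check the names by family or domain, and at that level it fit 5 of the 6. Auxin models aside, a B3 domain was also annotated in 82 other primary models, and subunit B6 in 3 others. The check therefore does not identify a factor within its family. Both LEC1 copies, Glyma.07G268100.1 and Glyma.17G005600.1, carried a histone-like domain and the description "nuclear factor Y, subunit B6". Both ABI3 copies, Glyma.08G357600.1 and Glyma.18G176100.1, and the FUS3 copy Glyma.19G100900.1 carried a B3 DNA binding domain. The remaining model, Glyma.16G050500.1, was annotated with an F-box domain and as "auxin signaling F-box 3", which goes against the FUS3 name. It is therefore called the F-box model here. A B3 domain model lies nearby in the numbering, Glyma.16G050300.1. It was added for comparison after its annotation had been seen, and it is given no factor name.

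LEC1 is a B subunit of the heterotrimeric nuclear factor Y, which binds CCAAT boxes together with A and C subunits. ABI3 and FUS3 bind DNA through a B3 domain, and ABI3 also carries the abscisic acid response in seeds. In Arabidopsis the 3 factors start and maintain embryo maturation, in which storage proteins, oil body proteins and desiccation protectants accumulate, and they activate one another as well as their targets.

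Cotyledons and seed coats were dissected from greenhouse grown seeds of the soybean cultivar Williams, with several seeds pooled per sample. Cotyledons came from seeds of 25 to 50 mg (C25, early), 100 to 200 mg (C100, mid) and 300 to 400 mg (C300, late), and seed coats from the first 2 weight ranges (SC25 and SC100). Nuclease treated ribosomes gave the footprint (FP) libraries, and the same ground tissue gave control (CT) libraries of total RNA broken to fragments. Fragments of 26 to 34 nt were kept in both. Each group had 2 libraries, except that 1 FP library each of C100 and C300 was analysed here, so footprint values at these stages have no replicate check.

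The 18 libraries held 7205928 to 32562521 counts. A level is given as RPKM, the count of a model divided by its cDNA length and by the library total and scaled to kilobases and megacounts. Translational efficiency (TE) divides the group mean of FP by that of CT, both in RPKM and raised to 0.1 where lower. The 19 storage protein models of the cotyledon summed to 4252 and 5235 RPKM in the C25 CT libraries and to between 22.6 and 398 RPKM in the 4 seed coat CT libraries. The seed coat peroxidase Ep, Glyma.09G022300.1, had at most 28 counts in a cotyledon CT library and at least 814 in a seed coat CT library, but C25 FP 2 held 117. Models annotated as AGAMOUS-like 62, an endosperm gene, summed to at most 16 counts in any library. The seed coat libraries labelled SC25 CT 1 and 2 differed in the storage protein sum, at 398 and 22.6 RPKM, and this is taken up beside the seed coat values. SC100 CT 1 held a count in 41713 models, against 67873 in SC100 CT 2, though its library total was larger.

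**Figure D1:**
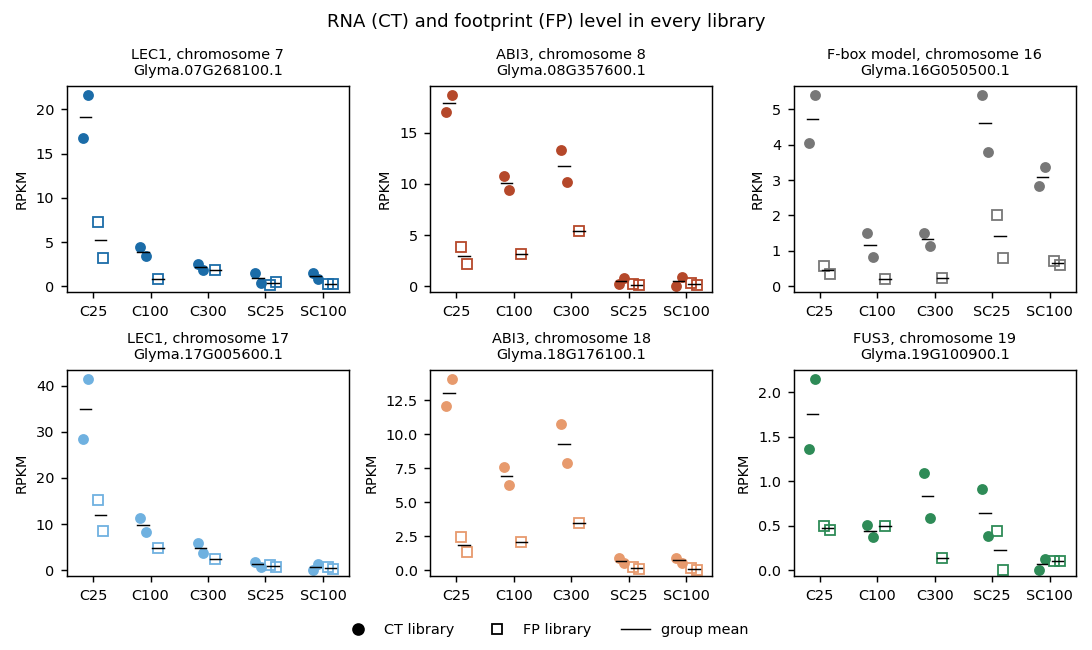
RNA and footprint level of the 6 members. Each point is a library, on a linear RPKM axis of its own in each panel, with filled circles for CT, open squares for FP and a bar for the group mean. LEC1 RNA was highest at C25 (16.8 to 41.4 RPKM over both copies), ABI3 RNA stayed at 6.28 RPKM or above in every cotyledon library, and the F-box model was as high in SC25 as in C25.

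LEC1 RNA fell at each step of cotyledon development. The copy on chromosome 7 had 16.8 and 21.6 RPKM in the C25 CT libraries, 4.42 and 3.4 RPKM at C100, and 2.5 and 1.78 RPKM at C300. The copy on chromosome 17 had 28.5 and 41.4 RPKM at C25, 11.4 and 8.39 RPKM at C100, and 5.88 and 3.72 RPKM at C300. For both copies the 3 stages did not overlap. Within C25 the LEC1 copies ranked high among the 14888 primary models with a mean of at least 1 RPKM, at percentiles 94.3 and 97.2. These are levels of a bulk tissue, so fewer cells of a type and less RNA per cell cannot be told apart.

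The fall was tested relative to the other models of each library, since the RPKM of most models was lower at C100 than at C25. edgeR's quasi-likelihood test with TMM scaling gave a log2 fold change from C25 to C300 of -2.16 (SE 0.19, Benjamini-Hochberg adjusted p = 1.7e-07) for the chromosome 7 copy and -1.85 (SE 0.19, adjusted p = 9.0e-07) for the chromosome 17 copy. Both stayed called under every alternative run for this comparison, with edgeR or DESeq2 adjusted p of at most 8.0e-05. From C25 to C300, 3 of the 6 members were called lower, against 11.7% of all models tested. None was called higher, against 12.3% (24.0% in either direction). The third was the F-box model.

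The fall was spread over both intervals. Between C25 and C100 it was -1.22 on the log2 scale (SE 0.18, adjusted p = 8.2e-05, edgeR) for the chromosome 7 copy and -0.74 (SE 0.18, adjusted p = 0.0072, edgeR) for the chromosome 17 copy, and 3 of 6 members were called lower against 6.54% of all models (8.04% were higher, and 14.6% changed in either direction). The call of the chromosome 17 copy was lost without C25 CT 2, C100 CT 1 or C100 CT 2 (edgeR adjusted p 0.102, 0.107 and 0.101) and with DESeq2 (0.090), over a range of 7.6e-06 to 0.107 among all alternatives. From C100 to C300 the values were -0.94 (SE 0.21, adjusted p = 0.011, edgeR) and -1.11 (SE 0.20, adjusted p = 0.0020, edgeR), and these 2 members were called lower against 2.74% of all models (2.93% were higher, and 5.67% changed in either direction). The first of these calls was lost without C100 CT 1 or 2 (adjusted p 0.167 and 0.0826, edgeR), and the second without C100 CT 1 (adjusted p = 0.083, edgeR). With DESeq2 the first was not called (adjusted p = 0.17), and on library totals without TMM neither copy was (adjusted p 0.26 and 0.106, edgeR). Over all alternatives the adjusted p ran from 0.0031 to 0.26 for the chromosome 7 copy in that interval.

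ABI3 RNA did not share this course. The copy on chromosome 8 had 17.1 and 18.7 RPKM at C25, 10.8 and 9.36 RPKM at C100, and 13.3 and 10.2 RPKM at C300. The copy on chromosome 18 had 12.1 and 14.0 RPKM at C25, 7.57 and 6.28 RPKM at C100, and 10.7 and 7.85 RPKM at C300. Both copies were highest at C25 as RPKM, and the C100 and C300 libraries overlapped for the chromosome 8 copy.

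Relative to the other models the ABI3 copies were not called at any step. Between C25 and C100 the log2 change was 0.24 (SE 0.20) for the chromosome 8 copy and 0.16 (SE 0.19) for the chromosome 18 copy, with edgeR adjusted p of 0.47 and 0.66. On library totals without TMM these values were -0.83 and -0.91, the second of them called (adjusted p = 0.031, edgeR), while the median of all models moved from -0.08 to -1.11. The direction of ABI3 thus depended on the scaling, and under either scaling the copies lay above the median model. From C25 to C300 the values were 0.37 (SE 0.20, edgeR adjusted p = 0.19) and 0.49 (SE 0.19, edgeR adjusted p = 0.072). The second was called without C300 CT 2 (0.55, edgeR adjusted p = 0.032), and both turned to -0.61 and -0.49 on library totals, where the median of all models was -0.98.

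The balance of LEC1 and ABI3 can be read within each library, where no scaling between libraries enters. The summed RPKM of the LEC1 copies over that of the ABI3 copies was 1.55 and 1.92 in the C25 CT libraries, 0.862 and 0.754 at C100, and 0.349 and 0.305 at C300. In the FP libraries the ratio was 3.63 and 3.36 at C25, and 1.07 and 0.485 at C100 and C300. LEC1 was thus ahead of ABI3 in all 4 libraries of C25, and behind it in all 3 libraries of C300. The stages did not overlap in either kind of library. The FP ratio was above the CT ratios of its stage each time. This ratio was formed after the levels had been seen and is given as a description, with no test.

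**Figure D2:**
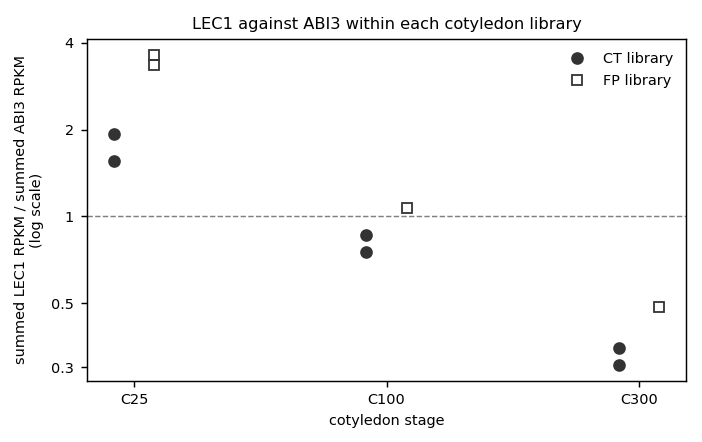
Summed RPKM of the LEC1 copies over summed RPKM of the ABI3 copies in each cotyledon library, on a log axis. Filled circles are CT and open squares FP libraries, and the dashed line marks equal levels. The CT ratio went from 1.55 and 1.92 at C25 to 0.349 and 0.305 at C300.

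The FUS3 copy on chromosome 19 was the least abundant of the members in cotyledon RNA. It had 1.37 and 2.15 RPKM at C25 (45 and 52 counts), 0.509 and 0.379 RPKM at C100 (19 and 10 counts), and 1.09 and 0.582 RPKM at C300 (38 and 12 counts). The libraries of C25 were higher than those of both later stages, and C300 was above C100 in both libraries. It was not called from C25 to C100 (-0.88, SE 0.32, edgeR adjusted p = 0.076) or from C100 to C300 (0.87, SE 0.35, edgeR adjusted p = 0.17). The first of these was called on library totals without TMM (adjusted p = 1.5e-04, edgeR), with at least 10 counts in every library (adjusted p = 0.034, edgeR) and without C300 CT 2 (adjusted p = 0.043, edgeR), and over all alternatives its adjusted p reached 0.59. From C25 to C300 the log2 fold change was -0.01 (SE 0.29, edgeR adjusted p = 0.98). On library totals it was -1.0 (adjusted p = 0.040, edgeR), about the shift of the median model.

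The neighbouring B3 model Glyma.16G050300.1 had 1.16 and 2.17 RPKM at C25, 0.580 and 0.625 RPKM at C100, and 1.01 and 0.50 RPKM at C300. It lay close to the FUS3 copy on chromosome 19, with a ratio of 0.848 to 1.65 over the 6 cotyledon CT libraries. Reads that align to both models were counted at both, which can bring the levels closer. The B3 model was not called between any cotyledon stages (edgeR adjusted p of 0.51 to 0.92).

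The F-box model followed another pattern. "Auxin signaling F-box 3" is in Arabidopsis an auxin receptor that marks repressor proteins for degradation. The model had 4.04 and 5.41 RPKM at C25, 1.5 and 0.824 RPKM at C100, and 1.5 and 1.14 RPKM at C300. It fell from C25 to C100 (-0.94, SE 0.19, adjusted p = 0.0026, edgeR), and this call was lost without C100 CT 2 (adjusted p = 0.073, edgeR) and with DESeq2 (adjusted p = 0.084). It was also lower at C300 than at C25 (-0.83, SE 0.20, adjusted p = 0.0042, edgeR), where DESeq2 did not call it (adjusted p = 0.12).

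**Figure D3:**
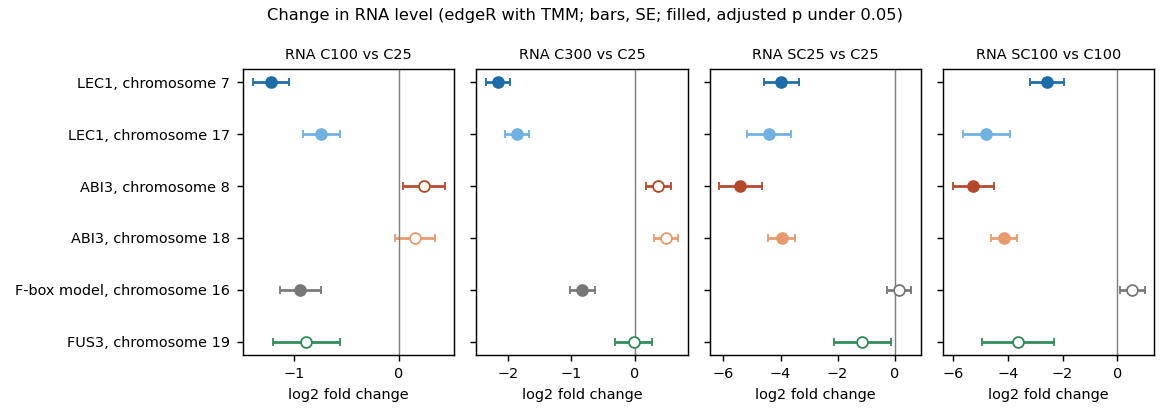
Log2 fold change in RNA level of each member in 4 comparisons, from edgeR with TMM. Bars are standard errors, and filled points have an adjusted p under 0.05. LEC1 was called lower in all 4 comparisons, ABI3 only in the 2 comparisons of seed coat with cotyledon, and the FUS3 copy in none of the 4. The ABI3 values at left (0.24 and 0.16) turn negative on library totals.

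LEC1 and ABI3 RNA was low in the seed coat, the maternal tissue around the embryo. The LEC1 copy on chromosome 7 had 1.44 and 0.374 RPKM in SC25 CT 1 and 2 (55 and 4 counts) and 1.53 and 0.863 RPKM at SC100. The LEC1 copy on chromosome 17 had 1.80 and 0.776 RPKM at SC25, and 0 and 1.36 RPKM at SC100. All 4 seed coat libraries lay below every cotyledon library for both copies. The ABI3 copy on chromosome 8 had 0.197 and 0.771 RPKM at SC25 (21 and 23 counts), and 0.0577 and 0.927 RPKM at SC100 (2 and 27 counts). The ABI3 copy on chromosome 18 had 0.876 and 0.552 RPKM at SC25, and 0.923 and 0.534 RPKM at SC100. The highest seed coat value of an ABI3 copy was thus below the lowest cotyledon value of its copy, 9.36 and 6.28 RPKM.

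From C25 to SC25 the log2 fold change was -3.97 (SE 0.62) and -4.41 (SE 0.76) for LEC1 on chromosomes 7 and 17, and -5.41 (SE 0.74) and -3.96 (SE 0.47) for ABI3 on chromosomes 8 and 18. The edgeR adjusted p was at most 0.0015, and the 4 models were called lower against 3.64% of all models (5.51% were higher, and 9.15% changed in either direction). From C100 to SC100 the values were -2.58 (SE 0.62), -4.79 (SE 0.85), -5.27 (SE 0.75) and -4.14 (SE 0.49), with edgeR adjusted p of at most 0.018 and 3.53% of all models called lower (3.37% were higher, and 6.90% changed in either direction). The chromosome 7 LEC1 call at SC100 was lost without C100 CT 1, C100 CT 2, SC100 CT 1 or SC100 CT 2 (adjusted p 0.128, 0.0853, 0.149 and 0.0735, edgeR) and on library totals (0.085). The other 3 calls held without each library in turn, with edgeR adjusted p of at most 0.044. Without SC100 CT 2 the log2 change was -11.07 for LEC1 on chromosome 17 and -8.32 for ABI3 on chromosome 8, and without SC100 CT 1 it was -3.59 and -4.19. The larger values rest on SC100 CT 1, which held a count in fewer models than SC100 CT 2.

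Storage protein models also had counts in the seed coat libraries. The 19 storage protein models summed to 8.39% of the C25 mean in SC25 CT 1 and to 0.477% in SC25 CT 2, with 18 of 19 detected in each. In SC25 CT 1 the LEC1 copies stood at 7.51% and 5.15% of their C25 means, and in SC25 CT 2 at 1.95% and 2.22%. ABI3 stood at 1.10% and 6.70% in SC25 CT 1, and at 4.31% and 4.23% in SC25 CT 2. In the SC100 libraries the storage sum was 1.94% and 2.53% of the C100 mean, LEC1 was 39.1% and 22.1% on chromosome 7 and 0% and 13.8% on chromosome 17, and ABI3 was 0.573% and 9.21% on chromosome 8 and 13.3% and 7.71% on chromosome 18. At SC25 the LEC1 copies and ABI3 on chromosome 18 were thus lower in the library with the lower storage sum, and ABI3 on chromosome 8 was higher in it. All 4 models stood below the storage share in SC25 CT 1 and above it in SC25 CT 2. At SC100, LEC1 on chromosome 7 and ABI3 on chromosome 18 stood above the storage share in both libraries. LEC1 on chromosome 17 and ABI3 on chromosome 8 stood below it in SC100 CT 1 and above it in SC100 CT 2. Whether these levels come from carried over cotyledon RNA or from RNA of the seed coat itself was not tested. For LEC1 on chromosome 7 the log2 change from C25 to SC25 was -5.98 without SC25 CT 1 and -2.89 without SC25 CT 2, for LEC1 on chromosome 17 it was -5.80 and -3.43, and for ABI3 on chromosome 18 it was -4.90 and -3.07. All 4 calls held.

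**Figure D4:**
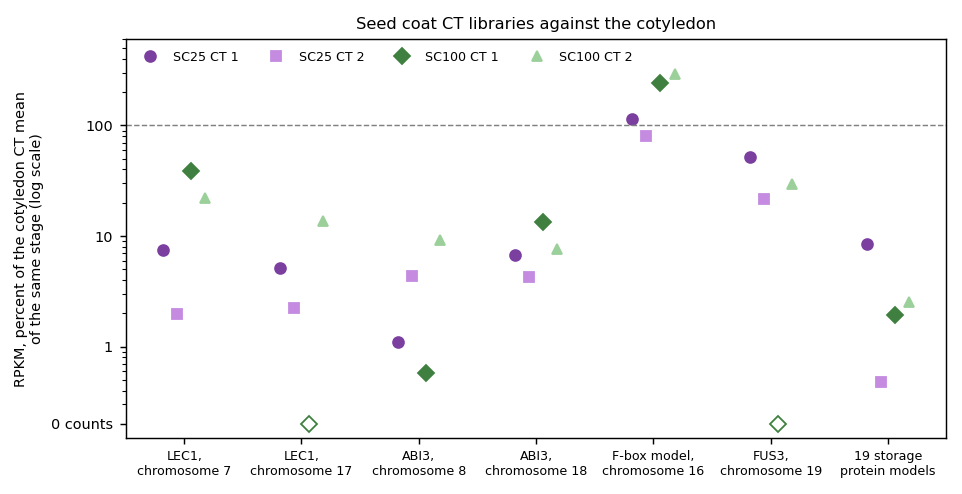
Level of each member in the 4 seed coat CT libraries as a percent of the cotyledon CT mean of the same stage, on a log axis, beside the summed storage protein models. Open symbols on the lowest line are libraries with 0 counts. LEC1 and ABI3 were below 40% in every library, and the F-box model was at 80.3% to 289%.

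The other members were not called between seed coat and cotyledon RNA. The F-box model had 5.41 and 3.79 RPKM at SC25, and 2.82 and 3.36 RPKM at SC100. Its SC25 and C25 libraries overlapped (0.15, SE 0.44, edgeR adjusted p = 0.87), though without SC25 CT 2 it was called higher (1.04, adjusted p = 0.043, edgeR). At SC100 both libraries lay above both C100 libraries (0.54, SE 0.46, edgeR adjusted p = 0.54). The FUS3 copy had 0.908 and 0.382 RPKM at SC25 (51 and 6 counts), and 0 and 2 counts at SC100. It gave -1.13 (SE 0.99, edgeR adjusted p = 0.54) at SC25 and -3.63 (SE 1.32, edgeR adjusted p = 0.13) at SC100, and at SC100 it was called without SC100 CT 2 (adjusted p = 0.039, edgeR). A count of 0 in SC100 CT 1 allows up to 0.164 RPKM of this model, taken at 3 counts, so its absence could not be shown at this depth. That bound covers counting error only, and SC100 CT 1 held a count in fewer models than SC100 CT 2 (41713 against 67873).

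Between the seed coat stages, 0 of 6 members were called by edgeR against 0.0208% of all models (0.0164% higher and 0.00446% lower), with 1 of 6 at an unadjusted p under 0.05, and 0 were called by DESeq2. That 1 was the FUS3 copy (-3.47, SE 1.30), which was called without SC25 CT 2 (-4.34, edgeR adjusted p = 0.039). The LEC1 copy on chromosome 17 was called without SC100 CT 2, the library that held its only SC100 counts (edgeR adjusted p = 0.046), and the F-box model without SC25 CT 2 (-1.34, edgeR adjusted p = 0.034).

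Within the cotyledon the copies of a pair differed in level in a steady way. In the cotyledon CT libraries LEC1 on chromosome 17 was above LEC1 on chromosome 7 in 6 of 6, by 1.70 to 2.58 times (median 2.22). In the FP libraries it was higher in 4 of 4, by 1.39 to 5.50 times. ABI3 on chromosome 8 was above ABI3 on chromosome 18 in 6 of 6 CT libraries, by 1.24 to 1.49 times, and in 4 of 4 FP libraries, by 1.53 to 1.66 times. The order was not steady in seed coat CT libraries. There the ABI3 ratio was 0.225 and 1.40 in SC25 CT 1 and 2, and 1.74 in SC100 CT 2. In SC100 CT 1 ABI3 had 2 counts on chromosome 8 and 35 on chromosome 18. The LEC1 ratio was 1.25 and 2.07 at SC25 and 1.58 in SC100 CT 2. In SC100 CT 1 LEC1 had 0 counts on chromosome 17 and 19 on chromosome 7. Reads that align to both copies were counted at both, so these ratios can understate a difference between unique parts of the copies. Across the 10 CT libraries the log2 levels of a pair gave r = 0.794 for LEC1, 0.920 for ABI3 and 0.194 for the F-box model with the FUS3 copy, as a description over libraries of 2 tissues. For the B3 model Glyma.16G050300.1 and the FUS3 copy r was 0.778. Reads counted at both models of a pair can raise these r values. Splice models shared most counts with the primary one, since Glyma.08G357600.2 and Glyma.08G357600.3 held 87.1% and 78.4% of its count and Glyma.18G176100.2 held 87.8%.

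Footprints were found on all 6 members in the cotyledon. LEC1 on chromosome 7 had 7.30 and 3.19 RPKM in the C25 FP libraries, 0.862 at C100 and 1.79 at C300. LEC1 on chromosome 17 had 15.2 and 8.61 RPKM at C25, and 4.74 and 2.5 RPKM at C100 and C300. ABI3 on chromosome 8 had 3.8 and 2.19 RPKM at C25, and 3.17 and 5.4 RPKM at C100 and C300. In RPKM, LEC1 footprints were therefore highest at C25, while those of ABI3 were highest in the C300 library. The TMM factors, by which a scaled RPKM is divided, were 0.553 and 0.443 for C25 FP, 0.355 for C100 FP and 0.750 for C300 FP. The order of the stages for ABI3 footprints therefore depends on the scaling. ABI3 on chromosome 18 had 2.41 and 1.32 RPKM at C25, and 2.07 and 3.45 RPKM at C100 and C300. The FUS3 copy had 0.50 and 0.452 RPKM at C25, and 0.492 and 0.143 RPKM at C100 and C300, the last from 2 counts. The F-box model had 0.577 and 0.355 RPKM at C25, and 0.204 and 0.222 RPKM at C100 and C300, and was the lowest in footprints at C100.

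At C25 the LEC1 copies had a higher TE than the ABI3 copies in both replicate pairs. The TE of LEC1 on chromosome 17 was 0.341, with 0.534 and 0.208 in pairs 1 and 2. That of LEC1 on chromosome 7 was 0.273, with 0.436 and 0.148. ABI3 on chromosome 8 had a TE of 0.168, with 0.223 and 0.117, and ABI3 on chromosome 18 had 0.143, with 0.199 and 0.0940. Pair 1 was higher than pair 2 for all 6 members, and over the pairs the ranges of LEC1 and ABI3 overlapped. C25 FP 2, used in pair 2, held 117 counts of the seed coat peroxidase Ep, and C25 FP 1 held 0. The bearing of this on TE was not tested. The median TE of the 14888 primary models was 0.208, so that LEC1 was at percentiles 67.1 and 80.3 and ABI3 at 37.5 and 30.0. The F-box model had the lowest TE of the members, 0.0987, at percentile 16.6.

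**Figure D5:**
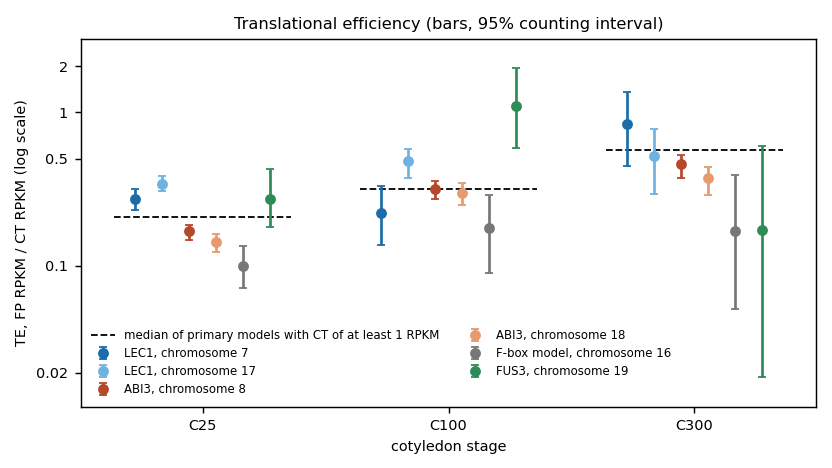
TE of each member at the 3 cotyledon stages, on a log axis. Bars are 95% intervals for counting error alone, and dashed lines are the median of primary models with at least 1 RPKM in CT, 0.208, 0.317 and 0.571. The FUS3 copy stood at 1.11 at C100, from a mean CT of 0.444 RPKM, and C100 and C300 rest on 1 FP library each.

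In the test of footprints against RNA within C25, which is relative to all models, only the F-box model was called. It was lower in footprints (-0.96, SE 0.26, adjusted p = 0.034, edgeR), as were 4.92% of all models (6.42% were higher, and 11.3% changed in either direction), and the call was lost without C25 CT 1 or 2 (adjusted p 0.232 and 0.338, edgeR) and with DESeq2 (0.24). LEC1 on chromosome 17 was 0.82 higher in footprints (SE 0.26, edgeR adjusted p = 0.058), and with the replicate block, which pairs the FP and CT libraries of the same ground tissue, it was called (edgeR adjusted p = 0.021). It was also called without C25 FP 1 (0.58, edgeR adjusted p = 0.042) or without C25 FP 2 (1.05, edgeR adjusted p = 7.3e-06), while its adjusted p reached 0.41 among the alternatives. LEC1 on chromosome 7 was 0.47 higher (SE 0.28, edgeR adjusted p = 0.28) and was called without C25 FP 2 (0.84, adjusted p = 0.0011, edgeR). ABI3 on chromosomes 8 and 18 gave -0.22 and -0.45 (edgeR adjusted p 0.61 and 0.27), the second called without C25 FP 1 (-0.72, adjusted p = 0.018, edgeR). On library totals the median of all models was -2.5, and LEC1 on chromosomes 7 and 17 gave -1.87 and -1.55, both above that median.

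In RPKM without TMM, the median TE was higher at each later stage, and so was the TE of both ABI3 copies and of LEC1 on chromosome 17. The rise of the median depended on the scaling. TMM-scaled RPKM gave medians of 1.05, 1.09 and 0.983 from the earliest stage to the latest. With TMM, footprints relative to RNA changed by 0.38 and 0.53 (log2) from C25 to C100 for ABI3 on chromosomes 8 and 18. From C25 to C300 they changed by -0.07 and -0.14. For LEC1 on chromosome 17 these changes were -0.05 and -0.94. At C100, where the median TE was 0.317, LEC1 on chromosome 7 had a TE of 0.220 and on chromosome 17 of 0.479, and ABI3 had 0.315 and 0.298. At C300, with a median of 0.571, LEC1 had 0.836 and 0.520, and ABI3 had 0.460 and 0.372. ABI3 was therefore close to or below the median at every stage. The FUS3 copy had a TE of 1.11 at C100 (95% counting interval 0.586 to 1.96), at percentile 98.9, from 21 FP and 29 CT counts. Its mean CT level there was 0.444 RPKM, below the 1 RPKM required of the models it was ranked among, so the percentile compares unlike levels. At C25 its TE was 0.271 and at C300 it was 0.171, the last from 2 FP counts. The B3 model Glyma.16G050300.1 also had its highest cotyledon TE at C100, 0.802 (0.444 to 1.43). Both values use the same lone FP library, and reads that align to both models were counted at both. The shared part was not measured.

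The FUS3 copy was the 1 member called higher in footprints at C100 (1.92, SE 0.45, adjusted p = 0.013, edgeR), against 3.65% of all models (3.96% were lower, and 7.62% changed in either direction). The lone FP library was assumed to vary like the other cotyledon groups. In the fit used for C100 and C300 the replicate block is a term shared by all cotyledon groups, and it does not pair FP with CT libraries by stage. The call was lost without C100 CT 1 or 2 (adjusted p 0.0865 and 0.0641, edgeR), with DESeq2 (0.37) and on library totals (0.87). At C300, 0 of 6 were called by edgeR against 4.53% of all models (1.35% higher and 3.18% lower), with 2 at an unadjusted p under 0.05, and 0 were called by DESeq2. One of these was the F-box model (-1.79, SE 0.53, edgeR adjusted p = 0.058), called with the replicate block (adjusted p = 0.047, edgeR), without C25 FP 1 or without C25 FP 2 (adjusted p = 0.041 in both, edgeR). The other was the FUS3 copy (-1.78, SE 0.79, edgeR adjusted p = 0.21).

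The change in footprints relative to RNA between stages was tested as an interaction. From C25 to C100, 0 of 6 members were called by edgeR against 0.0140% of all models (0.0109% higher and 0.00311% lower). From C25 to C300 it was 0 of 6 against 0.0124% (0.0109% higher and 0.00156% lower). In each of the 2 comparisons 1 member had an unadjusted p under 0.05, the FUS3 copy, at 1.43 (SE 0.56) and -2.27 (SE 0.86), and DESeq2 called 0. LEC1 on chromosome 17 gave -0.05 (SE 0.39) and -0.94 (SE 0.46), and ABI3 on chromosome 8 gave 0.38 (SE 0.40) and -0.07 (SE 0.40). The percent called shows that few models of any kind passed this test with lone FP libraries.

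Footprints on LEC1 and ABI3 were rare in the seed coat. LEC1 on chromosome 7 had 2 and 4 counts in the SC25 FP libraries and on chromosome 17 it had 11 and 5, against 139 and 72 and 245 and 164 at C25. ABI3 had 7 and 2 counts on chromosome 8 and 8 and 2 on chromosome 18, against 202 and 138 and 140 and 91. The 4 models were called lower in SC25 than in C25 footprints, with log2 fold changes of -4.56 to -5.26, against 3.26% of all models, while 1.05% were higher and 4.31% changed in either direction (edgeR adjusted p of at most 0.0023), and they stayed called without each library in turn. The F-box model had 51 and 16 counts at SC25 and 26 and 19 at C25, and was not called (0.49, SE 0.44, edgeR adjusted p = 0.55).

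Within the seed coat 0 members were called between footprints and RNA. At SC25 it was 0 of 6 against 0.0364% of all models, and at SC100 0 of 5 against 0% of all models, since the FUS3 copy had too few counts to be tested. No member had an unadjusted p under 0.05 in either, and DESeq2 called 0. Leaving out SC100 CT 2 gave calls for LEC1 on chromosome 17 (edgeR adjusted p = 0.015) and ABI3 on chromosome 8 (edgeR adjusted p = 0.012), which had 0 and 2 counts in the remaining CT library. The interaction between SC25 and C25 called 0 of 6, against 0% of all models by edgeR, with 0 members at an unadjusted p under 0.05 and 0 called by DESeq2.

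The partners and relatives of the members were read from the annotation text, with the members left out. Over all models, 8.04% were called higher and 6.54% lower from C25 to C100. Among other B subunits of nuclear factor Y, 2 of 19 tested models rose and 2 fell. One that fell was Glyma.20G000600.1, the 1 other model of subunit B6 that could be tested, with 9 and 10 counts at C25 and 0 and 0 at C100. Of the C subunits 0 of 11 changed. Of the A subunits 4 of 17 rose and 2 fell, and those that fell included Glyma.09G068400.1 (subunit A3), which went from 3.93 and 3.83 to 0.919 and 0.838 RPKM. It was also lower in SC25 than in C25, at 0.0197 and 0.0704 RPKM, and 5 of 18 A subunits were called lower there and 0 higher, against 3.64% and 5.51% of all models. The median log2 fold change was 0.12 for B, -0.02 for C and 0.05 for A subunits from C25 to C100, against -0.08 for all models. On the RPKM scale the medians were -0.86, -0.95 and -0.87, against -0.92 for all models. In RPKM, 3 of 19 B subunits, 0 of 11 C subunits and 0 of 17 A subunits had a higher mean at C100 than at C25.

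The B3 list held 138 models by its text match, of which 82 had a B3 domain annotation and the rest were named B3 for other reasons. From C25 to C100, 5 of 70 tested rose and 9 fell, against 8.04% and 6.54% of all models, and among models with the domain, a count added after seeing the data, 3 of 31 rose and 5 fell. One of those that fell was Glyma.04G037800.1, with 11 and 15 counts at C25 and 0 and 0 at C100. In SC25 against C25, 12 of 85 were higher and 4 lower, against 5.51% and 3.64% of all models, with Glyma.12G048500.1 at 0 counts in both C25 libraries and 222 and 22 in SC25. The VAL repressors, which in Arabidopsis shut down LEC1, ABI3 and FUS3 after germination, had 2 of 8 models higher at C100 and 0 lower on the TMM scale, while in RPKM 7 of 8 were lower (median log2 ratio -0.49). Of these Glyma.11G197900.1 had 2.05 and 2.48 RPKM at C25 and 2.42 and 1.80 RPKM at C100, so that its rise (0.96, SE 0.18, edgeR adjusted p = 0.0012) was relative to the falling median and its RPKM ranges overlapped. Of the ABA response bZIP factors, partners of ABI3 in Arabidopsis, 0 of 11 changed from C25 to C100, against 14.6% of all models in either direction.

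Lists named after the maturation program that these factors activate in Arabidopsis had more models called higher than lower at C100. The lists follow annotation text or the study's own list, so a listed model need not be a known target. From C25 to C100, where 8.04% of all models were higher and 6.54% lower, all 13 oleosins were called higher, with a median log2 fold change of 1.94, and Glyma.06G209900.1 went from 1.39 and 1.71 to 7.67 and 6.45 RPKM. Of the late embryogenesis abundant (LEA) models 39 of 92 tested rose and 0 fell. This list was matched by text and includes models annotated as LEA hydroxyproline-rich glycoprotein family. Glyma.19G260500.1, with that annotation, went from 0.344 and 0.260 to 5.87 and 4.44 RPKM. Of the 19 storage protein models 17 rose, with a median of 2.81, and the cupin Glyma.13G123500.1 went from 48.7 and 70.7 to 1285 and 991 RPKM. The storage list was chosen by the study on these samples, so its direction is not independent evidence. On the RPKM scale the medians of the 3 lists were 0.87, 0.41 and 1.73. From C100 to C300, while LEC1 fell further, 3 of 13 oleosins were higher and 0 lower (median -0.10), 20 of 92 LEA models were higher and 6 lower (median 0.13), and 3 of 19 storage models were higher and 1 lower (median -0.13), against 2.93% and 2.74% of all models.

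In the seed coat the oleosin and storage lists were lower at both stages. In SC25 against C25, where 5.51% of all models were higher and 3.64% lower, 11 of 13 oleosins and 13 of 19 storage protein models were lower and 0 were higher. Of the LEA models 26 of 104 were higher and 7 lower, led by Glyma.09G254300.1, which had 0 counts in both C25 libraries and 2.21 and 13.3 RPKM at SC25. In SC100 against C100, 12 of 13 oleosins and all 19 storage models were lower and 0 higher, while 9 of 104 LEA models were higher and 12 lower (median 0.02, against 0.94 at SC25), with 3.37% of all models higher and 3.53% lower. At SC25, of the bZIP factors 2 of 14 were higher and 2 lower, the former both annotated as abscisic acid responsive elements-binding factor 2, of which Glyma.06G040400.1 went from 0.254 and 0.345 RPKM at C25 to 2.83 and 1.55 RPKM at SC25.

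The models whose level over the 10 CT libraries was most like that of a member were sought among 12821 primary models with a mean of at least 1 RPKM. For ABI3 on chromosome 8 they included Glyma.16G007400.1 and Glyma.07G038200.1 (r = 0.994 for each), and for ABI3 on chromosome 18 Glyma.14G057900.1 (r = 0.995), all 3 annotated as integrase-type DNA-binding proteins. The nearest to ABI3 on chromosome 18 was a cytochrome P450, Glyma.08G238100.1 (r = 0.997). For LEC1 on chromosome 17 the nearest were an aspartyl protease, Glyma.04G136000.1 (r = 0.990), and glutamate dehydrogenase 2, Glyma.01G204600.1 (r = 0.990), and for LEC1 on chromosome 7 a DUF239 protein, Glyma.05G167100.1 (r = 0.968). The F-box model was nearest to a RING finger protein, Glyma.02G085200.1 (r = 0.985), and the FUS3 copy to a pyridoxal-dependent decarboxylase, Glyma.19G182000.1 (r = 0.990). The correlations are descriptions over libraries of 2 tissues that share depth and composition. Within the 6 cotyledon CT libraries alone, r for the models named here was 0.862 to 0.991.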

How the data were processed

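Ribosome footprint and control RNA were sequenced from soybean cotyledons and seed coats. The labels put 20 samples in groups of tissue, seed weight, library type and replicate, of which 18 libraries were analysed here. Per the methods, reads cleared of adapters were aligned by the authors with Bowtie version 1 to cDNA models, with 0 mismatches and up to 25 alignments per read, and took out ribosomal DNA models. They deposited raw counts for 88515 transcript models, without normalization or pooling. Some splice models had equal counts in every library, so a read was taken to be counted at every model it aligned to. The models were those of the Williams 82 assembly, Wm82.a2. No model name matched the reference gene table, so no coordinates or sequences are given.

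RPKM and TE were computed from the counts. TE uses the whole cDNA, so untranslated length lowers it. Tests were edgeR 4.0.16 quasi-likelihood tests (R 4.3.3) with TMM on models with at least 10 counts in the fit, two-sided, with Benjamini-Hochberg adjustment over all models of a fit and a threshold of 0.05. The cotyledon CT libraries, the CT libraries of both tissues at the stages both have, the libraries of each stage, all cotyledon libraries, C25 with SC25, and the FP libraries of replicated groups were fitted separately, 15 comparisons in all. Fits were tested on simulated data. Alternatives were DESeq2 1.42.0, library totals, other count filters, primary models, the replicate block and each library left out. The 6 members and the lists were chosen with earlier results of these data known. The named models are the members, the 3 most alike models of each, and the 2 largest rises and falls of each list from C25 to C100 and from C25 to SC25, of which examples are given.

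FP and CT libraries of the same number came from aliquots of the same ground tissue. The correlation of their deviations from the group means was 0.0169 at C25, 0.256 at SC25 and 0.121 at SC100, and between CT groups it was -0.0744 to 0.079. Replicates differed beyond counting noise, with a chi-square per degree of freedom of 20.3 to 232, and the p-values measure the spread between 2 pooled samples a group. Intervals and the floor of 3 counts cover counting error only.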

Additional observations from a re-analysis of the deposited data

How the results depend on the processing

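Of 1115 refitted log2 fold changes, 1053 kept their direction or had neither value called and stayed on their side of the threshold, 25 lost their call, 31 gained one, and 6 turned with one value called. All 6 turned on library totals without TMM, which move the median model. They were ABI3 on chromosome 18 from C25 to C100 (-0.91), footprints against RNA at C25 for LEC1 on chromosomes 7 (-1.87) and 17 (-1.55) and the FUS3 copy (-1.87), and footprints against RNA at C100 for ABI3 on chromosomes 8 (-1.67) and 18 (-1.74). Within the 1053, 73 changed sign with neither value called. On library totals the members called were 5 from C25 to C100 in RNA, 0 from C100 to C300, 6, 4, 2 and 1 for footprints against RNA at C25, C100, C300 and SC100. With DESeq2 the counts were 1 from C25 to C100, 1 from C100 to C300, and 0 for footprints against RNA at C25 and at C100. DESeq2 also did not call the F-box model from C25 to C300 (adjusted p = 0.12). Library totals also called the FUS3 copy from C25 to C300 (adjusted p = 0.040, edgeR). They did not call LEC1 on chromosome 7 in SC100 against C100 RNA (adjusted p = 0.085, edgeR). With 10 counts in every library the FUS3 copy was called from C25 to C100 (adjusted p = 0.034, edgeR). Requiring 10 counts in every library gave 1 for SC25 against C25 RNA and 1 for SC100 against C100 RNA, since fewer members were then tested, and 3 at C25, 0 at C100 and 1 at C300 for footprints against RNA, and 0 for SC25 against C25 footprints. No filter gave 1 for footprints against RNA at C300. The replicate block gave 2 at C25 and 1 at C300 for footprints against RNA and changed no other call of a member. Leaving out one library at a time, the counts in RNA ran from 1 to 4 (C100 against C25), 0 to 2 (C300 against C100), 3 to 4 (C300 against C25), 4 to 5 (SC25 against C25), 3 to 4 (SC100 against C100) and 0 to 2 (SC100 against SC25), and for footprints against RNA from 0 to 3 at C25, 0 to 2 at SC100 and 0 to 1 at C100 and C300. The causes were not tested. TE from TMM-scaled RPKM moved beyond the replicate or counting spread in 23 of 30 values, because the scaling brings the median TE to between 0.794 and 1.09. Footprints per kb of coding sequence were not run, since the tables hold cDNA lengths only. Seed coat counts under 10 limit what can be seen there.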
